A study of Homo sapiens with 12 samples.

Results

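The response to knockdown of *NUF2* was compared between 2 renal carcinoma cell lines, gene by gene, from a model in which the siRNA effect may differ by line. The members are the 16571 genes, of 58302 listed, that reached 0.5 FPKM (fragments scaled to exon length and to the number of mapped fragments) in at least 3 of the 12 libraries. The RNA sequencing covered 769-P and ACHN cells, both established lines that the labels describe as clear cell renal cell carcinoma (ccRCC), each transfected for 48 h with siRNA against *NUF2* (si-NUF2) or with control siRNA (si-NC), in 3 replicates per group. By the study's methods, si-NUF2 was a mix of siRNAs against *NUF2*, 769-P cells were grown in RPMI-1640 and ACHN cells in Eagle's MEM. Medium and cell line therefore cannot be told apart, nor can the loss of *NUF2* be told apart from other effects of 1 siRNA mix set against 1 control. No source says whether the replicates were separate cultures, so p-values measure the spread between these libraries, which may be technical.

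NUF2 belongs to the NDC80 complex, which ties kinetochores to spindle microtubules during mitosis. Cells that lose such attachments are held by the spindle checkpoint, and errors of division can raise the activity of p53, a transcription factor that restrains the cell cycle through targets such as *CDKN1A*. Genes of DNA replication are driven largely by E2F factors, which p53 and CDKN1A hold back. The interferon response, a program of antiviral genes that double-stranded RNA can also switch on, was set apart as a list of 132 tested genes, and the text below is chiefly about the 16439 others.

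Reads recovered from the FPKM summed to 28197145 to 37269331 per library, over the genes where they came out whole. The leukocyte markers examined summed to at most 1.18 FPKM in any library, and 0 of the 14 passed the filter. Of 14 fibroblast and endothelial markers 2 passed, and of 11 markers of renal epithelial identity 10 passed, with sums of 386 to 968 FPKM. The filter pools both lines. Of those 11 markers, 3 stayed under 0.5 FPKM in every 769-P library, *CA9*, *CDH1* and *KRT19*. In every ACHN library 2 did so, *CA9* and *CDH6*. The sums include *VIM*, at 126 to 192 FPKM in the 12 libraries. *NUF2* itself (chromosome 1 of hg38, 163266576 to 163355764, forward strand) stood at 19.4, 17.8 and 17.8 FPKM with si-NC and 4.17, 3.86 and 3.01 FPKM with si-NUF2 in 769-P cells. ACHN cells held 11.6, 15.01 and 14.8 FPKM with si-NC and 2.16, 5.14 and 4.25 FPKM with si-NUF2. It fell in both lines, by 2.29 and 1.89 on the log2 scale, and no difference between the lines passed the test (difference −0.40, standard error 0.215, adjusted p = 0.362 from limma). The test was also not passed by *HMGA2*, an architectural chromatin protein (difference −0.49, standard error 0.216, adjusted p = 0.273 from limma), or by *KDM2A*, a lysine demethylase (0.15, standard error 0.0901, adjusted p = 0.399 from limma).

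In the following, a change is the si-NUF2 minus the si-NC level on the log2(FPKM + 0.1) scale, and the difference between lines is the change in 769-P minus the change in ACHN cells. With a block for each replicate number of each line, limma called 213 genes at a Benjamini-Hochberg adjusted p under 0.05, which is 1.29% of the genes tested. Of these, 140 (0.845% of the genes tested) responded higher in 769-P and 73 (0.441%) lower. The calls were close to the threshold, with adjusted p from 0.0240 to 0.0494, while 3272 genes had an unadjusted p under 0.05. The number of calls depended on the block: without it limma called 0 genes, with 763 at an unadjusted p under 0.05, and limma-voom on the recovered reads called 972 with the block and 0 without. It depended also on single replicate pairs, since leaving out replicate 1 or 2 of 769-P or replicate 2 or 3 of ACHN gave 0 calls, leaving out replicate 1 of ACHN gave 2, and leaving out replicate 3 of 769-P gave 126. In these fits all 213 genes kept their direction, except that limma-voom tested 198 of them, which kept theirs. The direction was largely fixed in advance. Leaving out the block does not change the limma estimate, and in all 213 the 3 changes of the lines did not overlap.

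The 36 called genes of the interferon list all responded higher in 769-P. Outside the list 177 genes were called, 104 higher and 73 lower in 769-P, of which 168 were expressed in both lines and 165 are protein coding. Each line's own changes stood behind them: over all genes tested, si-NUF2 raised 14.3% and lowered 13.3% of the genes in 769-P, and raised 8.03% and lowered 6.86% in ACHN cells. Of the 177 genes, 63 rose in 769-P without a call in ACHN cells and 34 fell in 769-P without a call in ACHN cells. A smaller set of 26 was called in ACHN cells alone, 13 of them rising there and 13 falling. In 29 genes both changes were called with opposite signs, 14 rising in 769-P and falling in ACHN cells and 15 the reverse, against 40 such genes among all tested. In 25 both lines changed in one direction by different amounts. The absolute change was the larger in 769-P for 133 of the 177. The same share over all genes tested is not given here, so this is not shown to be particular to the 177. Among all genes tested, more were called changed in 769-P (4575) than in ACHN cells (2467).

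**Figure D1:**
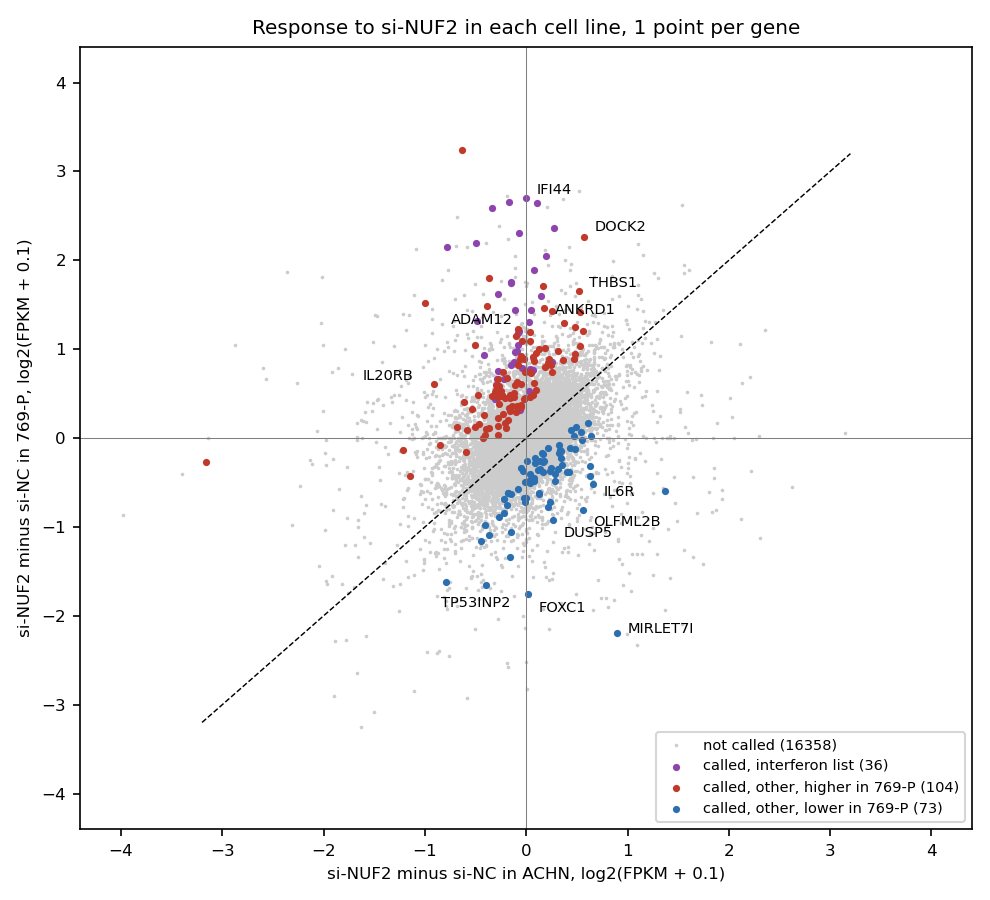
Change with si-NUF2 in ACHN (x axis) and 769-P cells (y axis) on the log2(FPKM + 0.1) scale, 1 point per gene tested, with genes of a called difference in color and the dashed line marking equal change. The 36 interferon genes and 104 others lie above the line and 73 genes lie below it.

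Among the named genes expressed in both lines and outside the interferon list that responded higher in 769-P, *DOCK2* differed most (1.69, standard error 0.224, adjusted p = 0.0350 from limma). DOCK2 is an exchange factor that activates the GTPase Rac, best known from blood cells. The 769-P libraries held 1.99, 0.573 and 0.783 FPKM with si-NC and 7.09, 3.24 and 5.43 FPKM with si-NUF2. The ACHN libraries held 7.17, 14.6 and 11.002 FPKM with si-NC and 12.2, 19.6 and 15.97 FPKM with si-NUF2. All 3 si-NUF2 libraries of 769-P lay above all 3 si-NC libraries. In ACHN cells, which had more *DOCK2* to begin with, the groups overlapped, though all 3 pairs rose, by 0.77, 0.41 and 0.54. The ACHN change of 0.57 narrowly missed the threshold (adjusted p = 0.0583 from limma), so the call is of a larger change in 769-P. *RNF182*, a ubiquitin ligase, was at 2.03, 1.27 and 1.12 FPKM with si-NC and 6.62, 3.65 and 4.69 FPKM with si-NUF2 in 769-P cells, against 6.17, 7.10 and 6.999 and then 6.85, 8.47 and 7.44 FPKM in ACHN cells. It rose by 1.71 in 769-P, and its change in ACHN cells was 0.16 (difference 1.54, standard error 0.141, adjusted p = 0.0261 from limma).

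*THBS1*, which encodes the matrix glycoprotein thrombospondin 1, was at 14.2, 9.996 and 9.79 FPKM with si-NC and at 39.6, 28.7 and 37.9 FPKM with si-NUF2 in 769-P cells. In ACHN cells, where its level was higher, it was at 117, 356 and 237 FPKM with si-NC and at 184, 474 and 331 FPKM with si-NUF2. It rose in both lines, by 1.66 in 769-P and by 0.52 in ACHN cells, so the lines differed in the size of the rise (1.14, standard error 0.139, adjusted p = 0.0335 from limma). *P3H2*, a collagen prolyl hydroxylase, and *ADAM12*, a membrane metalloprotease, rose by 1.43 and 1.19 in 769-P cells, while their changes in ACHN cells were 0.26 and 0.04. *PAPPA2*, a protease that cleaves an insulin-like growth factor binding protein, rose by 0.92 in 769-P against a change of −0.05 in ACHN cells.

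Transcription factors and signaling genes were also among the 15 with the highest difference. *GLI2*, an effector of Hedgehog signaling, was at 1.96, 1.68 and 1.60 FPKM with si-NC and at 4.12, 3.48 and 3.79 FPKM with si-NUF2 in 769-P cells. Its ACHN levels were 6.74, 11.7 and 8.69 and then 6.79, 13.9 and 7.90 FPKM. The 769-P groups did not overlap while the ACHN groups did, and *GLI2* rose by 1.09 in 769-P against a change of 0.04 in ACHN cells (difference 1.05, standard error 0.114, adjusted p = 0.0299 from limma). *PRDM8*, of the PR domain family, *SHISA2*, which restrains Wnt and FGF receptors, and *PTCHD4*, a Patched domain protein and p53 target, rose by 1.23, 0.75 and 1.15 in 769-P, and none of the 3 was called in ACHN cells. *PIK3IP1*, an inhibitor of PI3 kinase, stood out the other way. It fell by 1.21 in ACHN cells, from 4.86, 7.94 and 5.94 to 1.71, 4.15 and 2.40 FPKM, and was at 0.25, 0.631 and 0.836 and then 0.243, 0.521 and 0.726 FPKM in 769-P (difference 1.08, standard error 0.162, adjusted p = 0.0438 from limma). *GAS6-AS1* had a difference of 1.55, but it overlaps *TMEM255B* on its own strand and *GAS6* on the other, and how counting treated strand is not given in the sources used here, so its reads cannot be told apart from theirs.

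**Figure D2:**
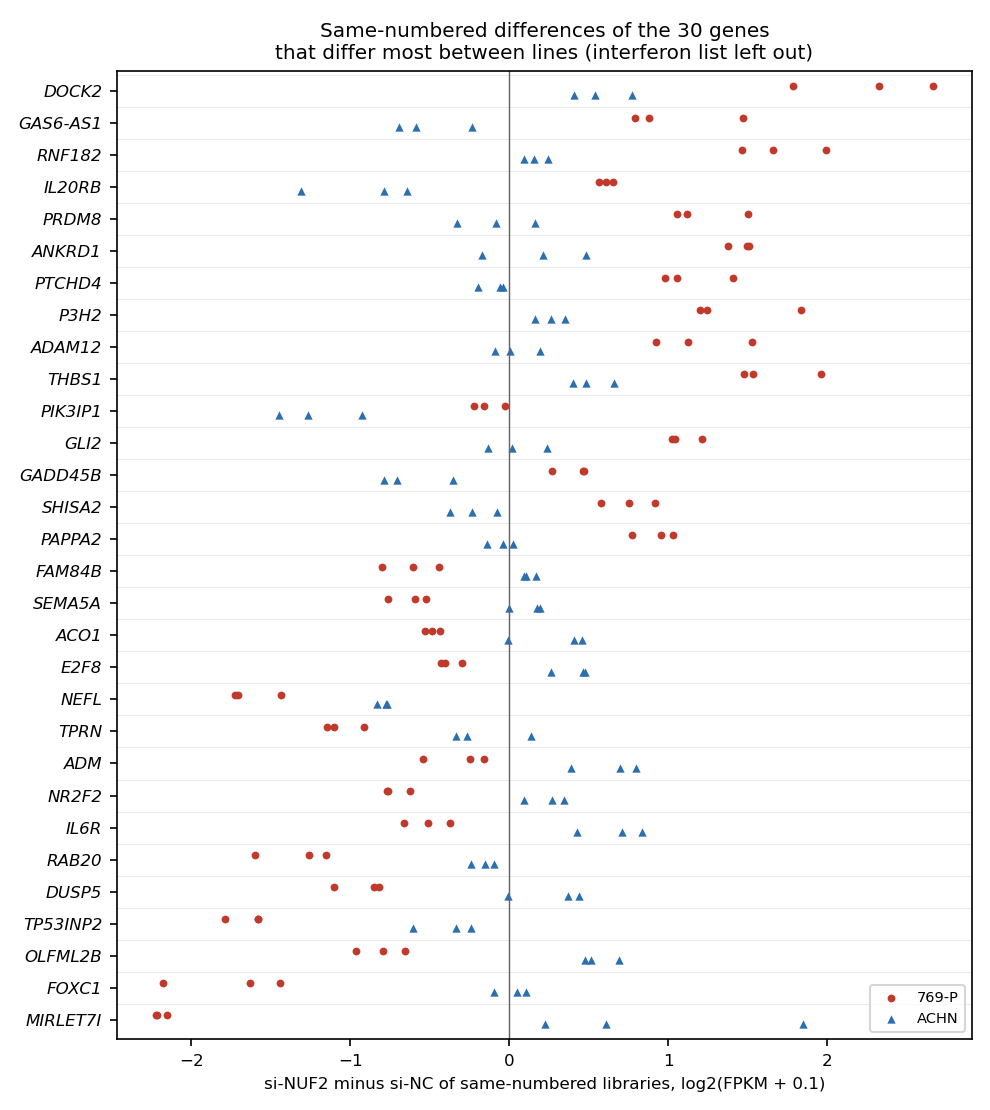
Changes of the 3 same-numbered library pairs of 769-P (circles) and of ACHN (triangles) on the log2(FPKM + 0.1) scale (x axis) for the 15 genes with the highest and the 15 with the lowest called difference outside the interferon list that are expressed in both lines. In every gene the 3 circles lie on one side of the 3 triangles. That holds for all 213 called genes, so it follows from how the genes were chosen. Among all genes tested, the 769-P changes lay all above in 14.3% and all below in 13.0%.

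The lower side was led, among the named protein-coding genes, by *FOXC1*, a forkhead transcription factor of kidney and eye development. 769-P cells gave 13.5, 29.4 and 28.0 FPKM with si-NC and 4.90, 9.31 and 6.02 FPKM with si-NUF2. ACHN cells gave 0.949, 1.32 and 1.59 FPKM and then 0.878, 1.43 and 1.64 FPKM. It fell by 1.75 in 769-P cells and its change was 0.02 in ACHN cells, where the level was low in every library (difference −1.77, standard error 0.191, adjusted p = 0.0299 from limma). *NR2F2*, a nuclear receptor also known as COUP-TFII, was at 33.6, 50.0 and 33.9 FPKM with si-NC and 19.6, 32.0 and 19.7 FPKM with si-NUF2 in 769-P, and at 9.26, 13.9 and 6.66 and then 11.1, 14.9 and 8.47 FPKM in ACHN cells. It fell by 0.72 in 769-P and rose by 0.24 in ACHN cells (difference −0.96, standard error 0.0819, adjusted p = 0.0261 from limma), though *MIR1469* lies within its exons.

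Signaling genes on the lower side included *IL6R*, the receptor for interleukin 6, and *DUSP5*, a nuclear phosphatase that switches off ERK. *IL6R* was at 5.18, 4.92 and 6.68 FPKM with si-NC and 3.6002, 3.04 and 5.07 FPKM with si-NUF2 in 769-P cells. ACHN cells held 5.45, 2.16 and 4.71 FPKM with si-NC and 7.32, 3.96 and 7.74 FPKM with si-NUF2. The levels of the groups overlapped in both lines, but every pair fell in 769-P and every pair rose in ACHN cells (changes −0.51 and 0.66, difference −1.17, standard error 0.13, adjusted p = 0.0299 from limma). *DUSP5* was at 14.2, 13.0 and 13.9 and then 8.01, 7.07 and 6.35 FPKM in 769-P cells, and at 32.8, 11.4 and 20.9 and then 32.4, 15.6 and 27.0 FPKM in ACHN cells. It fell by 0.92 in 769-P, and the change of 0.27 in ACHN cells was not called. *TP53INP2*, which takes part in autophagy, and *NEFL*, a neurofilament protein, fell in both lines but further in 769-P, by 1.65 against 0.39 and by 1.62 against 0.79. *RAB20*, a small GTPase, fell by 1.34 in 769-P, to 0.273, 0.298 and 0.514 FPKM, and was between 4.16 and 6.68 FPKM in every ACHN library.

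The lowest difference among the named genes belonged to *MIRLET7I*, the gene of the microRNA let-7i (chromosome 12 of hg38, 62603686 to 62603769, forward strand). It is shown with its sequences because the let-7 family represses targets, *HMGA2* among them, through its seed. RefSeq (GRCh38.p14) gives the mature forms, printed with the seed, bases 2 to 8, in capitals:
hsa-let-7i-5p: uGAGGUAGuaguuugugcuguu
hsa-let-7i-3p: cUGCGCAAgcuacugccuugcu
In 769-P cells the gene was listed at 5.66, 4.08 and 2.21 FPKM with si-NC and at 1.14, 0.828 and 0.387 FPKM with si-NUF2. The ACHN libraries held 1.90, 0.309 and 2.37 and then 2.93, 1.38 and 2.78 FPKM. These values rest on 1 to 14 reads per library over 84 bases, and the gene overlaps *LINC01465* on the other strand. The difference of −3.09 (standard error 0.394, adjusted p = 0.0350 from limma) is therefore set by very few reads and says nothing of the level of the mature let-7i.

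Genes called in both lines with opposite signs show the difference most directly. *IL20RB*, a subunit of the receptors for interleukins of the IL-20 family, was at 16.2, 12.8 and 14.7 FPKM with si-NC and 25.5, 18.8 and 22.1 FPKM with si-NUF2 in 769-P cells. Its ACHN levels were 1.07, 3.43 and 3.34 FPKM with si-NC and 0.575, 2.17 and 1.29 FPKM with si-NUF2. It rose by 0.61 in 769-P and fell by 0.91 in ACHN cells (difference 1.52, standard error 0.170, adjusted p = 0.0299 from limma), and its exons overlap *NCK1* on its strand and *IL20RB-AS1* on the other. *OLFML2B*, an olfactomedin domain protein, went the opposite way: it fell by 0.81 in 769-P, from 3.12, 7.47 and 6.08 to 1.94, 4.204 and 3.03 FPKM, and rose by 0.56 in ACHN cells, from 5.15, 3.46 and 5.60 to 8.33, 5.02 and 7.82 FPKM. *GADD45B*, a stress-induced regulator of growth arrest, was at 18.3, 8.90 and 14.5 and then 25.4, 10.6 and 19.7 FPKM in 769-P, and at 33.1, 51.7 and 32.5 and then 19.01, 40.7 and 19.8 FPKM in ACHN cells. The libraries numbered 2 stood apart from 1 and 3 in both lines, lower in 769-P and higher in ACHN cells, yet all 3 pairs rose in 769-P and all 3 fell in ACHN cells (difference 1.02, standard error 0.123, adjusted p = 0.0332 from limma). *SERPINH1*, the collagen chaperone HSP47, *TPM1*, an actin-binding tropomyosin, *CYTH1*, an exchange factor for ARF GTPases, and *JCAD*, a protein of endothelial junctions, likewise rose in 769-P, by 0.48, 0.48, 0.38 and 0.32, and fell in ACHN cells, by 0.26, 0.24, 0.27 and 0.53. *CENPM*, a constitutive centromere protein, and *ISOC2* did the reverse, with changes of −0.41 and 0.29 and of −0.17 and 0.32.

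**Figure D3:**
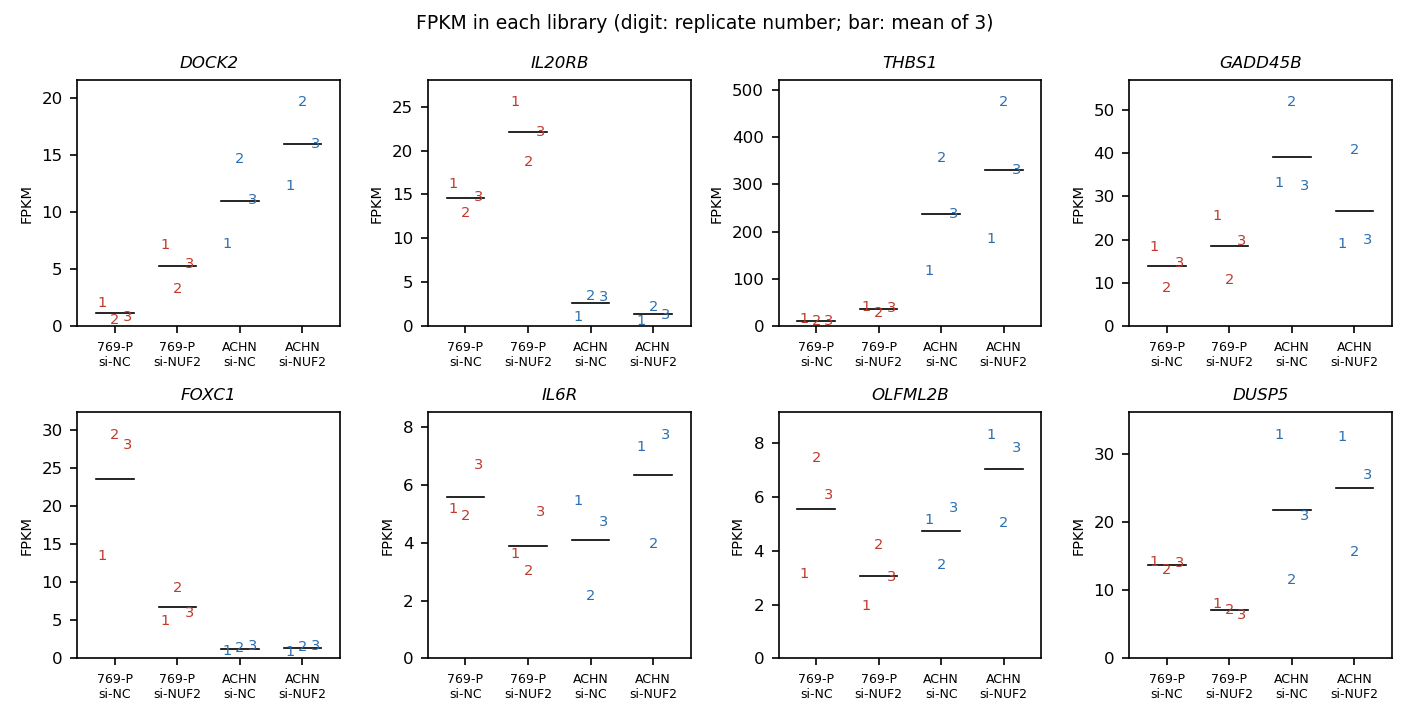
FPKM (y axis, linear, from 0) of 8 genes in each library of the 4 groups, with the replicate number as the plotting symbol and the mean of 3 as a bar. *DOCK2* and *THBS1* reach higher values with si-NUF2 in 769-P cells, and *FOXC1* and *DUSP5* lower ones. *IL20RB*, *IL6R*, *OLFML2B* and *GADD45B* move in opposite directions in the 2 lines.

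The lists of genes by pathway describe these differences by group. For comparison, 14.3% of the genes tested had their 3 changes in 769-P all above the 3 in ACHN cells, and 13.0% all below. In 769-P 14.3% of all genes rose and 13.3% fell, and in ACHN cells 8.03% rose and 6.86% fell, which are the shares that the counts of each list are set against. Of the interferon list, 95 of 132 genes lay all above and 0 all below, 80 (60.6%) rose and 4 (3.03%) fell in 769-P, 3 (2.27%) rose and 8 (6.06%) fell in ACHN cells, and the median difference was 0.62, against 0.01 over all genes. The interferon-induced gene *IFI44* was at 4.76, 5.08 and 2.27 and then 29.2, 38.5 and 14.1 FPKM in 769-P, against 1.77, 2.60 and 5.70 and then 2.24, 2.39 and 4.86 FPKM in ACHN cells. Replicate 3 of 769-P had the lowest *IFI44* level with either siRNA and the smallest median change of the list, 0.27 against 0.60 and 0.69.

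Of 31 p53 targets tested, 8 were called and all 8 responded higher in 769-P, against 0.845% of all genes. The difference was positive in 29 of 31, with a median of 0.44, and of 0.39 to 0.48 over the settings tried. Some settings cannot move the limma estimate, so this range is no sign of stability. The number of calls did not hold. It was 0 without the block, 0 or 1 with any 1 pair left out, and 14 of 30 with limma-voom and the block. In 20 of 31 the 3 changes in 769-P lay all above the 3 in ACHN cells, against the 14.3% given above. In 769-P cells 13 (41.9%) rose and 0 fell, against 14.3% and 13.3% of all genes, while in ACHN cells 1 (3.23%) rose and 6 (19.4%) fell, against 8.03% and 6.86%. The median change of the list was 0.21, 0.11 and 0.24 in the 3 pairs of 769-P and −0.14, −0.07 and −0.18 in those of ACHN cells.

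Within this list the genes differed in which line moved. *BAX*, which permeabilizes mitochondria in apoptosis, was at 57.7, 48.2 and 48.6 and then 74.1, 63.0 and 70.0 FPKM in 769-P, and at 90.1, 74.1 and 72.8 and then 91.4, 73.3 and 69.0 FPKM in ACHN cells. It rose by 0.44 in 769-P and its change was −0.02 in ACHN cells (difference 0.46, standard error 0.0620, adjusted p = 0.0351 from limma). *DDB2*, a sensor of ultraviolet damage, was at 7.58, 6.78 and 7.41 and then 10.8, 10.3 and 12.6 FPKM in 769-P, and at 12.2, 10.6 and 12.1 and then 12.6, 9.32 and 10.8 FPKM in ACHN cells. Here too the rise was in 769-P (0.63, against −0.10 in ACHN cells, difference 0.73, standard error 0.101, adjusted p = 0.0370 from limma). *PHLDA3*, an inhibitor of AKT whose exons overlap *AC096677.2* on its strand, was instead at 35.0, 30.4 and 32.6 and then 37.9, 32.6 and 38.0 FPKM in 769-P, and at 88.3, 59.7 and 53.8 and then 59.3, 47.9 and 38.0 FPKM in ACHN cells. It fell by 0.46 in ACHN cells, while its change in 769-P was 0.16 (difference 0.62, standard error 0.0746, adjusted p = 0.0332 from limma). *RPS27L*, a ribosomal protein paralog induced by p53, rose by 0.30 in 769-P against a change of −0.16 in ACHN cells.

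The other called members, *MDM2*, *PLK2*, *PMAIP1* and *TIGAR*, and the genes that follow them here were picked after their values were seen. *MDM2*, the ubiquitin ligase that degrades p53, rose by 0.27 in 769-P and fell by 0.23 in ACHN cells. *PMAIP1*, which encodes the apoptosis factor NOXA, and *TIGAR*, a regulator of glycolysis, rose by 0.55 and 0.36 in 769-P, with changes of −0.30 and −0.08 in ACHN cells. *PLK2*, a kinase of the polo family, rose by 0.89 in 769-P, from 87.5, 46.4 and 58.0 to 131, 89.2 and 125 FPKM, against a change of −0.02 in ACHN cells. *CDKN1A*, which encodes the cell cycle inhibitor p21, was at 200, 182 and 193 and then 180, 163 and 191 FPKM in 769-P, and at 281, 142 and 112 and then 142, 100 and 59.6 FPKM in ACHN cells. It fell by 0.80 in ACHN cells, its change in 769-P was −0.10, and the difference of 0.70 missed the threshold (adjusted p = 0.0590 from limma). *GDF15*, a secreted stress cytokine, fell by 0.62 in ACHN cells and its change in 769-P was 0.13 (difference 0.76, adjusted p = 0.0938 from limma). Its ACHN levels spread widely, from 134 to 771 FPKM. *XPC*, which recognizes DNA damage, was the member that rose in both lines, by 0.89 and 0.44.

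The 45 genes of DNA replication and nucleotide supply leaned to ACHN cells. There 29 of 45 (64.4%) rose and 0 fell, against 8.03% and 6.86% of all genes, while in 769-P cells 4 (8.89%) rose and 1 (2.22%) fell, against 14.3% and 13.3%. The difference was negative in all 45, though positive in 1 without replicate 3 of 769-P and in 1 without replicate 1 of ACHN, with a median of −0.39 that ran from −0.50 to −0.30 over the settings tried, and in 36 of 45 the 3 changes in 769-P lay all below the 3 in ACHN cells, against 13.0% of all genes. Taken gene by gene, limma called 0 of the 45 differences at an adjusted p under 0.05. On the recovered reads limma-voom, chosen after seeing the data, tested 42 and called 22, all lower in 769-P. Without the block limma-voom called 0. The ACHN pairs varied, with median changes of 0.58, 0.18 and 0.36, against 0.01, −0.01 and 0.01 in 769-P.

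The lowest p of this list belonged to *GINS1*, a subunit of the replicative helicase. It was at 25.3, 24.2 and 24.1 and then 27.7, 23.8 and 23.9 FPKM in 769-P, and at 4.93, 6.37 and 6.42 and then 8.09, 8.82 and 9.08 FPKM in ACHN cells. It rose by 0.55 in ACHN cells and its change in 769-P was 0.04, a difference of −0.51 that just missed the threshold (adjusted p = 0.0506 from limma). The next genes were picked after their values were seen. *GINS2*, of the same helicase, was at 14.7, 14.5 and 12.6 and then 18.8, 16.7 and 16.3 FPKM in 769-P, and at 2.53, 4.44 and 3.50 and then 5.88, 6.98 and 7.24 FPKM in ACHN cells, where it rose by 0.95. *E2F1*, the activator of many genes of S phase, was at 28.3, 28.1 and 18.8 and then 30.3, 31.2 and 23.4 FPKM in 769-P, and at 5.08, 5.13 and 4.99 and then 9.92, 7.07 and 9.91 FPKM in ACHN cells. It rose by 0.80 in ACHN cells, and the change of 0.20 in 769-P was not called. *MCM3*, of the helicase ring, rose by 0.58 in ACHN cells, from 16.7, 26.7 and 22.5 to 30.5, 33.4 and 33.4 FPKM, and *CDT1*, which loads it, by 0.55. For *GINS1*, *GINS2*, *E2F1* and *MCM3* every 769-P library lay above every ACHN library, so the rise in ACHN cells started from a lower level. Since the RNA is from whole cultures, more cells in S phase and more RNA per cell cannot be told apart.

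*E2F8*, a repressor among the E2F factors, was called by itself: it fell by 0.38 in 769-P, from 4.45, 4.66 and 3.49 to 3.33, 3.73 and 2.53 FPKM, and rose by 0.40 in ACHN cells, from 0.669, 2.19 and 1.47 to 0.964, 3.08 and 1.78 FPKM (difference −0.78, standard error 0.103, adjusted p = 0.0350 from limma). *CDK2*, the kinase that drives entry into S phase, had a called difference of −0.41, rising by 0.32 in ACHN cells against a change of −0.08 in 769-P. It was picked after its value was seen.

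The promoters of the replication genes are shown because many hold E2F words. Such words, here and in the lists below, are a trait of how a list was drawn. They are there whatever the response to si-NUF2 and do not bear on the difference between lines. RefSeq promoters (GRCh38.p14, 250 bases before to 50 after each start) matched 10030 of 16448 tested symbols and 38 of the 45. The words TTTGGCGC, TTTCCCGC, TTTCGCGC and TTTGCCGC, searched on both strands, were in 46.2% of the 52 promoters of this list, against 4.82% of the promoters of genes tested and 3.31% of all promoters. Of the members with a low p, 3 that hold a word before the start are printed 5′ to 3′ on the strand of the gene, with the word (or its reverse complement) in capitals.
CDT1, chr16:88803743-88803772, forward strand, 35 bases before the start: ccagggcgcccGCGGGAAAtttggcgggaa
POLA1, chrX:24693770-24693799, forward strand, 137 bases before the start: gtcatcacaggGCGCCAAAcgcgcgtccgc
GINS2, chr16:85688967-85688996, reverse strand, 31 bases before the start: ctctcgccgtgGCGGGAAAacggcggccgc
The same words were in 8.89% of the promoters of the mitosis list and 11.1% of those of the p53 list. Half-sites of p53, found by their consensus, were in 19.4% of the 36 promoters of the p53 list, against 5.82% of those of genes tested. They were also in 11.1% of those of the mitosis list, 10.7% of those of the 104 other genes that responded higher in 769-P and 12.7% of those of the 73 that responded lower. The interferon word GAAANNGAA was in 53.1% of the promoters of the called interferon genes, 8.26% of those of the same 104 genes and 7.59% of those of the same 73, against 6.48% for genes tested. Whether interferon or p53 acts on the genes outside these lists was not tested. A match is a run of letters in this window and was not tested as a binding site.

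Of 46 genes of the kinetochore and mitosis, *NUF2* included, 19 (41.3%) rose and 1, *NUF2*, fell in ACHN cells, against 8.03% and 6.86% of all genes. In 769-P 8 (17.4%) rose and 8 fell, against 14.3% and 13.3%. The difference was positive in 5 of 46, with a median of −0.19, and in 24 of 46 the 769-P changes lay all below those of ACHN cells, against 13.0% of all genes. The 3 called members all responded lower in 769-P, against 0.441% of all genes. *NEK2*, a centrosome kinase, was at 23.7, 24.0 and 25.1 and then 23.2, 23.2 and 20.4 FPKM in 769-P, and at 9.50, 19.04 and 16.3 and then 13.3, 24.9 and 21.96 FPKM in ACHN cells. It rose by 0.43 in ACHN cells, while its change in 769-P was −0.11 (difference −0.55, standard error 0.0829, adjusted p = 0.0446 from limma). *CKAP5*, a microtubule polymerase, and *CDCA8*, of the chromosomal passenger complex, fell by 0.37 and 0.28 in 769-P, against changes of −0.03 and 0.09 in ACHN cells. Of genes picked after their values were seen, *CENPA*, the centromeric histone, rose by 0.63 and 0.57, and *BIRC5*, which encodes survivin, by 0.57 and 0.55 in 769-P and ACHN cells.

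Of 37 genes of collagens and matrix, 15 (40.5%) rose and 2 (5.41%) fell in 769-P, against 14.3% and 13.3% of all genes. In ACHN cells 3 (8.11%) rose and 2 (5.41%) fell, close to the 8.03% and 6.86% of all genes. The median difference was 0.26, but 0.10 with no filter on low values and 0.41 with a filter of 1 FPKM in 3 libraries of each line. The called members were *THBS1*, given above, and *COL4A5*, a chain of type IV collagen, which was at 1.66, 2.19 and 2.33 and then 2.37, 2.93 and 3.54 FPKM in 769-P, and at 2.83, 3.59 and 2.99 and then 2.43, 3.40 and 2.86 FPKM in ACHN cells. It rose by 0.51 in 769-P, while its change in ACHN cells was −0.12 (difference 0.62, standard error 0.0943, adjusted p = 0.0438 from limma). The type IV chain *COL4A1*, picked after its value was seen, had a difference of the other sign, −0.52, and missed the threshold (adjusted p = 0.0660 from limma), having risen by 0.64 in ACHN cells. Of 36 contractile actin genes, 14 (38.9%) rose and 5 (13.9%) fell in 769-P, the latter close to the 13.3% of all genes. In ACHN cells 5 (13.9%) rose and 8 (22.2%) fell, against 8.03% and 6.86%. *ANXA1*, an annexin, and *CALD1*, caldesmon, rose in 769-P by 0.54 and 0.46, and their changes in ACHN cells were 0.10 and −0.15.

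Of 19 YAP/TEAD targets, 13 (68.4%) rose and 1 (5.26%) fell in 769-P, against 14.3% and 13.3% of all genes, while 6 (31.6%) rose and 0 fell in ACHN cells, against 8.03% and 6.86%. Their median change was 0.46 in 769-P, against 0.16 for ACHN cells. The called member, *ANKRD1*, an ankyrin repeat protein that YAP and TEAD induce, was at 1.68, 0.441 and 0.843 FPKM with si-NC and at 4.93, 1.42 and 2.32 FPKM with si-NUF2 in 769-P. ACHN cells gave 5.51, 3.99 and 3.73 and then 4.85, 4.67 and 5.25 FPKM, so that it rose by 1.46 in 769-P while its change in ACHN cells was 0.18 (difference 1.29, standard error 0.171, adjusted p = 0.0350 from limma). *CYR61* and *CTGF*, matricellular targets of the same pathway picked after their values were seen, rose in both lines, by 0.84 and 0.37 and by 1.40 and 0.67, and their differences were not called (adjusted p = 0.0660 and 0.0999 from limma).

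Of 30 genes of epithelial junctions and keratins, 7 (23.3%) rose and 9 (30%) fell in 769-P, against 14.3% and 13.3% of all genes. In ACHN cells 3 (10%) rose and 2 (6.67%) fell, near the 8.03% and 6.86% of all genes. *CLDN4*, a claudin of tight junctions, fell by 0.72 in 769-P, from 82.3, 69.6 and 78.1 to 55.9, 39.8 and 43.5 FPKM, and was between 0.502 and 0.827 FPKM in every ACHN library. *CLDN2* fell by 0.27 in 769-P against a change of 0.17 in ACHN cells, where it was at 1.44 to 2.83 FPKM. *KRT8*, a keratin of simple epithelia, rose further in ACHN cells (0.60) than in 769-P (0.17), and *KRT7* rose by 0.59 in 769-P against a change of −0.27 in ACHN cells. *KRT8* overlaps *KRT18* on the other strand. *AREG*, which encodes the EGF receptor ligand amphiregulin, rose in ACHN cells, from 13.9, 13.7 and 12.8 to 20.7, 18.9 and 19.6 FPKM, with all si-NUF2 libraries above all controls. In 769-P, where it was at 214, 226 and 226 and then 216, 225 and 210 FPKM, its change was −0.02 (difference −0.57, standard error 0.0601, adjusted p = 0.0299 from limma).

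Of 28 NRF2 and antioxidant genes, 12 (42.9%) fell and 1 (3.57%) rose in ACHN cells, against 6.86% and 8.03% of all genes. In 769-P 4 rose, at the 14.3% of all genes, and 6 (21.4%) fell, against 13.3%. The median changes of the ACHN pairs, −0.25, −0.15 and −0.19, lay below those of the 769-P pairs, −0.04, −0.07 and −0.03. *NQO1*, a quinone reductase and the usual reporter of NRF2, was at 109, 108 and 120 and then 125, 127 and 135 FPKM in 769-P, and at 89.9, 123.2 and 103 and then 79.7, 110 and 90.3 FPKM in ACHN cells. It rose by 0.21 in 769-P and fell by 0.18 in ACHN cells (difference 0.39, standard error 0.0416, adjusted p = 0.0299 from limma). *ME1*, which makes NADPH from malate, rose by 1.2 and 0.56, *GSR*, glutathione reductase, fell by 0.69 and 0.22, and *AKR1C3*, an aldo-keto reductase with close paralogs, had a change of 0.10 in 769-P and fell by 0.40 in ACHN cells.

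Among the remaining lists the calls were single genes. *LAMP2*, a lysosomal membrane protein, fell by 0.89 in 769-P and 0.27 in ACHN cells. *GGT1*, a renal brush border enzyme that overlaps *SNRPD3* on its strand, fell by 0.62 and 0.18. *DKK3*, a secreted Wnt modulator, rose by 0.53 in 769-P against a change of −0.25 in ACHN cells. *ADM*, which encodes the hypoxia-induced peptide adrenomedullin, rose by 0.63 in ACHN cells, from 0.551, 2.79 and 1.18 to 1.03, 3.70 and 1.98 FPKM, and its change in 769-P was −0.31. Of 37 ATF4 and unfolded protein genes 0 were called, though the difference was positive in 31, with a median of 0.22. Without replicate 1 of ACHN the median was 0.08 and 23 were positive. In ACHN cells that list had median changes of −0.39, 0.0048 and −0.09 in the 3 pairs, so replicate pair 1 stood apart, and in 769-P 0.09, 0.07 and 0.10. Of 42 nuclear genes of oxidative phosphorylation 0 were called, with a positive difference in 5 and a median of −0.12, and in 18 of 42 (42.9%) the 769-P changes lay all below those of ACHN cells, against 13.0% of all genes.

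**Figure D4:**
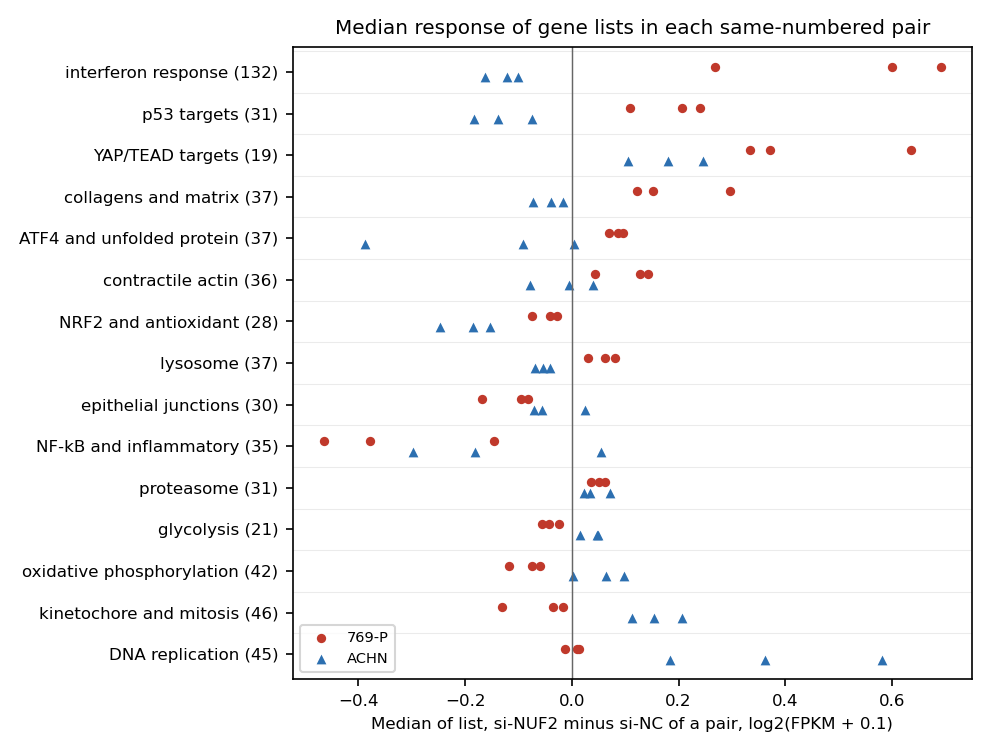
Median change of 15 gene lists (number of genes tested in parentheses) in each same-numbered pair of 769-P (circles) and ACHN (triangles), on the log2(FPKM + 0.1) scale (x axis). The pairs of the 2 lines do not overlap for the interferon, p53, replication and mitosis lists and overlap for the NF-kB and proteasome lists.

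Some called genes passed the filter in 1 line only, so that the change in the other rests on low levels. *GPD1*, glycerol-3-phosphate dehydrogenase, fell by 0.78 in 769-P, from 2.10, 4.54 and 3.09 to 1.13, 2.96 and 1.56 FPKM, and was at most 0.463 FPKM in ACHN cells. *LBH*, a transcriptional regulator, rose by 0.66 in 769-P, where it reached 2.90 FPKM, against a change of −0.28 in ACHN cells. *SYTL2*, an effector of RAB27 in vesicle transport, fell by 0.48 in ACHN cells, from 27.8, 20.4 and 21.5 to 19.04, 16.5 and 14.3 FPKM, and rose by 0.48 in 769-P, where it was at 0.293 to 0.602 FPKM. *LRRC4B*, an adhesion protein of synapses, rose by 0.63 in ACHN cells and fell by 0.42 in 769-P, where it was at most 0.13 FPKM. *MIR4324* had a difference of 3.87, which rests on 0 to 5 reads per library.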

How the data were processed

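RNA sequencing of 12 libraries, 3 for each siRNA in each cell line, was analysed from 1 deposited table per library. Per the labels and the study's methods, the authors trimmed reads with fastp, and the submitters' processing notes name HISAT2 2.0.5, featureCounts 1.5.0-p3 and hg38. The values are FPKM as deposited by the authors, and DESeq2 was used by the authors only. The annotation and the strand setting are not given in the sources used here.

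Libraries of a line were brought to a common scale by trimmed means of their log ratios (factors 0.990 to 1.01), and values were taken as log2(FPKM + 0.1), which understates changes of genes with low levels. limma 3.58.1 in R 4.3.3 (lmFit and eBayes with a trend) fitted an siRNA effect for each line and 6 blocks, 1 per line and replicate number, with 4 residual degrees of freedom. The interaction was the 769-P minus the ACHN effect, adjusted by Benjamini-Hochberg over 16571 genes. The steps were also run on data simulated from the same blocked model, with independent noise and a spread shared by both lines. That run tests neither the choice of block nor the unequal spread of the lines. The block was part of the planned model, though the labels do not say that same-numbered libraries are matched. As a later check, same-numbered si-NUF2 and si-NC libraries deviated together from their group means, with correlations of 0.275, 0.204 and 0.128 for 769-P. For ACHN they were 0.569, 0.669 and 0.377. An exact permutation test, two-sided, of the 3 against 3 pair differences of a gene cannot go below p = 0.1.

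Whole reads could be recovered from the FPKM, with exon lengths from GENCODE, for 34735 genes. Of the values above 0, 96.2% lay within 0.05 of a whole multiple. Recovered reads summed to a median of 32245654 per library, which is not the full library size. They served for limma-voom, an alternative chosen after seeing the data. The number of reads limits the precision of low genes and covers counting error only.

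The members and the gene lists were chosen with earlier results of these data known. The genes named were *NUF2*, *HMGA2* and *KDM2A*, the 15 highest and the 15 lowest called differences among genes expressed in both lines outside the interferon list, up to 4 called genes of lowest p in each list, 5 called genes expressed in 1 line, 12 with opposite calls, and 5 interferon genes. Loci with only a clone name and *Y_RNA* copies, which share a symbol and near-identical sequence, were left out of the naming. Any other gene is said to have been picked after its value was seen. Alternatives covered the block, the pseudocount, the scaling, the filter, the trend, the threshold and each replicate pair. Sequences are from RefSeq (GRCh38.p14). siRNA sequences are not shown. Python 3.11.15 with pandas 2.3.3 and matplotlib 3.10.9 made the tables and plots.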

Additional observations from a re-analysis of the deposited data

Results flagged for a closer look

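Each gene called for a difference between the lines and named by the rule is listed here because the interaction of siRNA and line passed an adjusted p under 0.05 in limma with the replicate block, 68 genes in all, with the difference on the log2 scale in parentheses. No cause was tested. The response was higher in 769-P for *MIR4324* (3.87), *IFIT1* (2.83), *IFI44* (2.71), *IFI6* (2.54), *DOCK2* (1.69), *GAS6-AS1* (1.55), *RNF182* (1.54), *IL20RB* (1.52), *PRDM8* (1.31), *ANKRD1* (1.29), *PTCHD4* (1.25) and *P3H2* (1.17). Higher in 769-P were further *ADAM12* (1.16), *THBS1* (1.14), *PIK3IP1* (1.08), *GLI2* (1.05), *GADD45B* (1.02), *SHISA2* (0.98), *APOL1* (0.98), *PAPPA2* (0.97), *SYTL2* (0.96), *LBH* (0.94), *KRT7* (0.86) and *JCAD* (0.86). Smaller positive differences belonged to *DKK3* (0.78), *SERPINH1* (0.73), *DDB2* (0.73), *TPM1* (0.72), *LGALS3BP* (0.70), *CYTH1* (0.65), *ME1* (0.64), *COL4A5* (0.62), *PHLDA3* (0.62), *CALD1* (0.61), *AKR1C3* (0.50) and *RPS27L* (0.46). Below these came *BAX* (0.46), *ANXA1* (0.44) and *NQO1* (0.39). The response was lower in 769-P for *MIRLET7I* (−3.09), *FOXC1* (−1.77), *OLFML2B* (−1.37), *TP53INP2* (−1.26), *DUSP5* (−1.19), *RAB20* (−1.17), *IL6R* (−1.17), *LRRC4B* (−1.05), *GPD1* (−0.997), *NR2F2* (−0.96), *ADM* (−0.94) and *TPRN* (−0.90). Lower in 769-P were further *NEFL* (−0.83), *E2F8* (−0.78), *ACO1* (−0.77), *SEMA5A* (−0.75), *FAM84B* (−0.74), *CLDN4* (−0.71), *CENPM* (−0.70), *LAMP2* (−0.62), *AREG* (−0.57), *NEK2* (−0.55), *ISOC2* (−0.49) and *GSR* (−0.46). Smaller negative differences belonged to *CLDN2* (−0.44), *GGT1* (−0.44), *KRT8* (−0.43), *CDCA8* (−0.37) and *CKAP5* (−0.34). *MIRLET7I* and *MIR4324* rest on at most 14 and 5 reads per library. Without the block 0 of these differences passed an adjusted p under 0.05 in limma.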

How the results depend on the processing

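The called genes kept their sign under every alternative, all 213 where all were tested, 190 under the stricter filter and 198 with limma-voom. That was largely fixed in advance and is no sign of robust calls. Leaving out the block or the trend, or moving the threshold, does not change the limma estimate. In all 213 the 3 changes in 769-P did not overlap those in ACHN cells, so leaving out a pair could hardly turn a sign. Medians near 0 did not keep their sign. That of the zinc finger genes, 0.0052, ran from −0.0095 to 0.014. That of all genes, 0.0068, was −0.0054 with no further scaling and −0.0015 under the stricter filter. The number of calls did not hold. It was 213 in all, 202 in genes expressed in both lines and 177 outside the interferon list, with 4575 genes changed in 769-P and 2467 in ACHN. With no replicate block these became 0, 0, 0, 718 and 161 (763 differences at an unadjusted p under 0.05 in limma). With limma-voom on the recovered reads, chosen after seeing the data, the first 3 became 972, 921 and 898, and with voom and no replicate block the 5 counts were 0, 0, 0, 661 and 161 (657 unadjusted). A pseudocount of 1 gave 374, 304 and 335 and a filter of 1 FPKM in 3 libraries of each line 514, 514 and 463. With no filter on low values limma gave 0, 0 and 0 differences (4156 unadjusted) and 1365 changed genes in ACHN, with no trend 0, 0 and 0 (3065 unadjusted), and at an adjusted p under 0.01 0, 0, 0, 1916 and 550. Leaving out a replicate pair gave 0 to 126 differences in all, 0 to 120 in both lines and 0 to 72 outside the interferon list, with 2444 to 4382 changed genes in 769-P and 482 to 2608 in ACHN. The most were without replicate 3 of 769-P, where 81.0% of the calls were higher in 769-P, against 65.7%. The other scalings and a pseudocount of 0.01 kept every count within 1.5 times. Of 1184 values of named genes under the alternatives 461 kept their side of the threshold and 723 did not. The cause of these losses was not tested. With 4 residual degrees of freedom the median standard error of the difference was 0.1285 with the block and 0.2593 without it.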

Other observations

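Groups of genes with no called difference are described here by their counts, to be set against 14.3% of all genes rising and 13.3% falling in 769-P, and 8.03% and 6.86% for ACHN. Of 35 NF-kB and inflammatory genes, 2 (5.71%) rose and 13 (37.1%) fell in 769-P and 1 (2.86%) rose and 5 (14.3%) fell in ACHN cells, and the 3 median changes of each line overlapped. Of 25 genes of cholesterol synthesis, 3 (12%) rose and 10 (40.0%) fell in 769-P and 2 (8%) rose and 3 (12%) fell in ACHN cells. All 7 chromatin regulators named in the study rose in both lines, with median changes of 0.50 for 769-P against 0.63 for ACHN cells, and since the study chose them on these samples they are not independent evidence of that direction. Of 20 heat shock genes, 10 (50.0%) rose in 769-P, against 7 (35.0%) in ACHN cells. Of 369 zinc finger genes, 72 (19.5%) rose and 17 (4.61%) fell in 769-P and 51 (13.8%) rose and 12 (3.25%) fell in ACHN cells. Their median difference of 0.0052 changed sign under several alternatives, with a lowest value of −0.0095. The 31 proteasome genes had 9 (29%) that rose in 769-P against 3 (9.68%) in ACHN cells, with 0 falling in either.

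The ACHN levels of *JCAD*, chosen after its values were seen, varied between replicate numbers while all 3 pairs fell. It was at 15.6, 1.32 and 6.88 FPKM with si-NC and at 9.96, 1.03 and 4.42 FPKM with si-NUF2. The median standard deviation per gene on the log2 scale was 0.223 with si-NUF2 and 0.229 with si-NC in ACHN cells, against 0.142 and 0.153 in 769-P cells.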
